A study of Mus musculus with 8 samples.

Results

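CUT&RUN for histone H3 acetylated at lysine 27 (H3K27ac) was done in primary mouse myotubes with or without Nrip1, and the authors deposited 2 lists of regions, those with at least 2-fold more and those with at least 2-fold less peak intensity in the knockout (KO). The 846 regions on chromosome 16, the chromosome that carries Nrip1, are described here, of 11180 regions in both lists. They were selected by the chromosome name alone, but each region is in a list because of the measured 2-fold difference, so its direction is a description and carries no test. The lists hold 780 decreased and 66 increased regions of chromosome 16.

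The 8 libraries fell into 4 groups of 2: KO and control myotubes, each with the H3K27ac antibody and with IgG. KO cells were labelled Nrip1KO and controls Ctrl, both derived from satellite cells of gastrocnemius muscle that were passaged and differentiated for 4 days. The study made its floxed line on C57BL/6J, with loxP sites in the intron before the coding exon and beyond the 3′ UTR. The myotubes are described as those of its striated muscle KO, which used Cre driven by the muscle creatine kinase promoter, which is active in differentiated muscle, and Cre-negative littermates as controls. The ages of the mice that gave these cultures are not given in the sources used here. Nuclei were pooled and then split between antibodies, so the replicates may be technical. The lists carry no value per library, so neither the depth nor the spread between replicates behind a call is known, and muscle markers could not be checked by level.

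RIP140, the protein that Nrip1 encodes, is a corepressor that binds nuclear receptors and recruits histone deacetylases, and in skeletal muscle it represses genes of oxidative metabolism. H3K27ac is placed by CREBBP and EP300 and marks active enhancers and promoters. Enhancers often lie far from the gene they act on, so the nearest gene start is a way of naming a region and not evidence of its target. Mouse chromosome 16 is one of the smaller chromosomes, with gene-rich ends and a long gene-poor stretch between, and its distal part matches much of human chromosome 21.

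Stretches of 200 bases from 8 regions are printed for orientation: the 3 regions at Nrip1, the widest increased region, the increased regions at Robo2 and Snai2, and the widest decreased domains at Runx1 and Socs1. Within each region the stretch with the most kinds of motif was chosen, so its motif content is not a measurement. Capitals mark matches, on either strand, to the muscle E-box CAGCTG, the AP-1 site TGANTCA, the TEAD site CATTCC, the RUNX site TGTGGT, the nuclear receptor half-site AGGTCA or the MEF2 consensus. Coordinates and sequence are from GRCm38.p6, the assembly that mm10 stands for.
Nrip1 intron near the start, decreased, chr16:76357574-76357773, plus strand: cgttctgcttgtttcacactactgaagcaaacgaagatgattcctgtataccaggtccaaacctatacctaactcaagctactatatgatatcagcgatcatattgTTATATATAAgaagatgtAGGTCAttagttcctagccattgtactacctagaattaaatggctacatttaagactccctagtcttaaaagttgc
Nrip1 intron toward the coding exon, decreased, chr16:76339176-76339375, plus strand: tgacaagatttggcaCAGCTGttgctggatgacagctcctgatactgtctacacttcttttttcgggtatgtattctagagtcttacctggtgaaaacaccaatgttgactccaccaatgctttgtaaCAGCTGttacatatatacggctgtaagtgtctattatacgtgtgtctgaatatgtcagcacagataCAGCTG
Downstream of Nrip1, decreased, chr16:76284271-76284470, plus strand: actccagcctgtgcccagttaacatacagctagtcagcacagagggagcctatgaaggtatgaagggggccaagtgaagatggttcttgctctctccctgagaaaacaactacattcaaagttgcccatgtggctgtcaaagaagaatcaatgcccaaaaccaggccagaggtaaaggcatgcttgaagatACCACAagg
Widest increased region, chr16:78738808-78739007, plus strand: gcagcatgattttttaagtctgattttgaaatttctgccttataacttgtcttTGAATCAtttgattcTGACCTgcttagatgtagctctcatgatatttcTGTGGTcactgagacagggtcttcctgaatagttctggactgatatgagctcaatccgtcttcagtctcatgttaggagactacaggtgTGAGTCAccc
Robo2 intron, increased, chr16:74158900-74159099, plus strand: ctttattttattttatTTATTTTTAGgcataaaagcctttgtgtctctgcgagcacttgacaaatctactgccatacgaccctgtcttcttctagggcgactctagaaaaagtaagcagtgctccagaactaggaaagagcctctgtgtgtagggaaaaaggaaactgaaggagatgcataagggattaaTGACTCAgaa
Near Snai2, increased, chr16:14709968-14710167, plus strand: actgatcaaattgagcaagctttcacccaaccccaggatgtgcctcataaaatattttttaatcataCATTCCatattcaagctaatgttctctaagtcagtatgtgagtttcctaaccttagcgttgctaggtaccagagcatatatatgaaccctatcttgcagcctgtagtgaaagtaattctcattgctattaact
Runx1 domain, decreased, chr16:92632558-92632757, plus strand: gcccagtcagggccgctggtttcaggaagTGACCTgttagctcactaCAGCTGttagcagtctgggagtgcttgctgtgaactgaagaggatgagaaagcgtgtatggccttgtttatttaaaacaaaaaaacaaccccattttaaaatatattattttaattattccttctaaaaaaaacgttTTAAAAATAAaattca
Socs1 domain, decreased, chr16:10777663-10777862, plus strand: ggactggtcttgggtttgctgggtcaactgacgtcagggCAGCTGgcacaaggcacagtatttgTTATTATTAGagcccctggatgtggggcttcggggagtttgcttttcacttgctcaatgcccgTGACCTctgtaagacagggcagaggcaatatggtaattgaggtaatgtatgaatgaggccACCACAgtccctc

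Chromosome 16 lost H3K27ac regions far more often than it gained them. Of its 846 regions, 92.2% were decreased (95% Wilson interval 90.2 to 93.8, counting error only) and 7.80% were increased, beside 65.0% decreased and 35.0% increased over all deposited regions. The other chromosomes together had 62.7% decreased, but chromosome 4 had as high a share, with 811 decreased and 66 increased regions (92.5%), while on chromosome 7 the share was 2.31%. Chromosome 16 makes up 3.60% of the assembled length and carries 3.03% of protein-coding genes, and it held 10.7% of all decreased but 1.68% of all increased regions. Per Mb it had 7.94 decreased regions against 2.47 elsewhere and 5.18 on chromosome 4, and 0.672 increased regions against 1.47. Decreased regions covered 1100 kb, or 1.12% of the chromosome, against 0.293% of the others. A fold threshold on peak intensity does not separate less acetylation per allele from fewer copies of the DNA, and the intervals alone cannot tell these apart.

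Read along the chromosome, the regions formed 53 runs of decreased and 52 runs of increased regions. Decreased runs held a median of 8 regions, and the longest held 102 over 5.48 Mb (chr16:18603473-24082219). Of the increased runs, 44 were single regions, 5 were pairs and 3 held 3 or more. With so few increased regions, long decreased runs and single increased ones follow from the counts alone, and the run lengths are given only to place the regions. Between neighbouring regions, the widest interval without any region spanned 3.21 Mb and contained 2 protein-coding genes. The chromosome ends were left out of this, and the first region began at position 3512967.

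**Figure D1:**
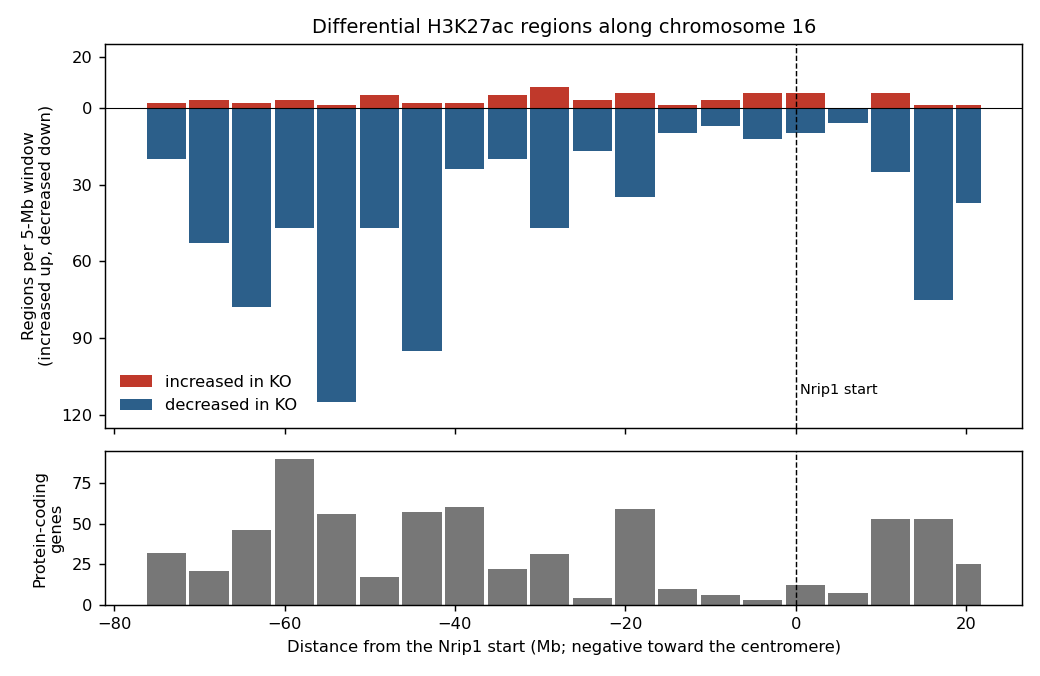
Counts of increased (up) and decreased (down) H3K27ac regions per 5-Mb window of chromosome 16, with protein-coding genes per window below; the x axis is distance from the Nrip1 start in Mb and the last window is shorter. Increased regions number 0 to 8 in every window, while decreased regions range from 6 to 115.

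Nrip1 itself (ENSMUSG00000048490.14, chr16:76287400-76373827, minus strand) carried decreased regions and no increased one. A region of 627 bp (chr16:76357574-76358200) and one of 811 bp (chr16:76338836-76339646) lay in introns, with centres 15940 and 34586 bp from the annotated gene start. A region of 1239 bp (chr16:76283681-76284919) was intergenic, 2480 bp beyond the 3′ end of the gene. None of the 3 overlapped the last exon (chr16:76287400-76295015), which holds the whole coding sequence (chr16:76291185-76294667) and which the study deleted. Where the downstream loxP site lies relative to the third region is not given in the sources used here. The next decreased regions were both nearest to Usp25, a deubiquitinase gene, at 0.39 and 0.58 Mb on the telomere side.

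Direction varied with distance from the Nrip1 start. All 10 regions within 2 Mb were decreased, 5 within 1 Mb and 5 between 1 and 2 Mb. Between 2 and 5 Mb, 10 regions were decreased and 10 increased, the most even mix of any of these intervals. The decreased share was 77.8% of 27 regions at 5 to 10 Mb, 91.8% of 158 at 10 to 20 Mb, 87.7% of 155 at 20 to 40 Mb, 97.1% of 313 at 40 to 60 Mb and 94.5% of 163 beyond 60 Mb. Within 10 Mb on either side, 41 of 57 regions were decreased (71.9%, interval 59.2 to 81.9), against 739 of 789 farther away (93.7%, 91.7 to 95.2). Neighbouring regions are not independent of each other, so these intervals are narrower than the true uncertainty. The contrast was much smaller when same-direction regions within 100 kb were joined. The decreased share was then 72.2% within 10 Mb (26 of 36), beside 76.7% for the whole chromosome (184 of 240).

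Both sides of Nrip1 had a lower decreased share within 10 Mb, but at 2 to 5 Mb it rested on few loci. Toward the telomere, the 2 to 5 Mb interval held 1 decreased and 6 increased regions, and the 5 to 10 Mb interval 17 decreased and 3 increased. Toward the centromere, the counts were 9 decreased and 4 increased at 2 to 5 Mb, and 4 decreased and 3 increased at 5 to 10 Mb. The 6 telomeric increased regions at 2 to 5 Mb formed 1 run over 313 kb, and 3 of the 4 centromeric ones lay in Robo1. At the telomeric tip, beyond 20 Mb, all 24 regions were decreased.

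**Figure D2:**
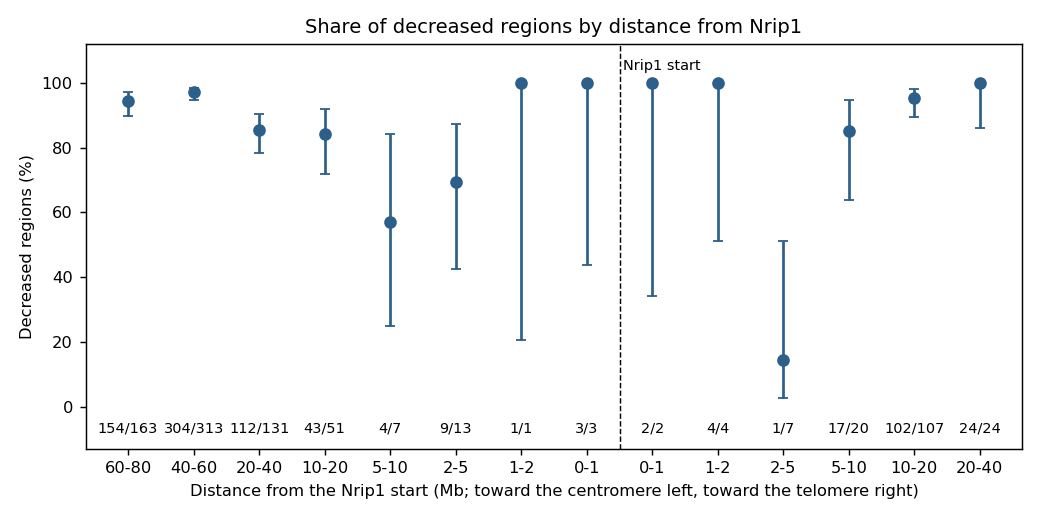
Percentage of regions decreased in KO myotubes by distance from the Nrip1 start (Mb), toward the centromere on the left and the telomere on the right; bars are 95% Wilson intervals and the fractions give decreased over all regions. The share is lowest at 2 to 5 Mb on the telomere side (1 of 7), where the 6 increased regions form 1 run over 313 kb. It reaches 24 of 24 at the telomeric tip.

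The densities behind the lower decreased share around Nrip1 depended on the unit. Within 10 Mb there were 2.05 decreased regions per Mb, against 9.45 farther away, while increased regions numbered 0.800 and 0.639 per Mb. In the 2 to 5 Mb interval, where the share was lowest, both directions stood at 1.67 per Mb. The stretch within 10 Mb of Nrip1 was gene-poor, with 1.40 protein-coding genes per Mb against 8.13 farther away. Per 10 genes, decreased regions numbered 14.6 within 10 Mb and 11.6 beyond, and increased regions 5.71 and 0.786. Over the 20 windows of 5 Mb, the number of decreased regions correlated with the number of genes at Pearson r = 0.578 and Spearman rho = 0.657, and that of increased regions at r = -0.0851 and rho = -0.0940. The windows share libraries and neighbours, and these coefficients are descriptions.

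Gene-poor windows had a lower decreased share on the rest of the genome as well. In windows with under 15 genes, 76.5% of chromosome 16 regions were decreased, against 53.2% on the 17 chromosomes other than 4, 7, 10 and 16. The shares were 90.3% and 63.1% with 15 to 39 genes, and 95.6% and 78.5% with 40 or more. Chromosomes 4, 7 and 10 were set aside for their own uneven shares of direction, after these had been seen, and with them the shares elsewhere were 45.3%, 55.4% and 71.9%. In the gene-richest class chromosome 16 had 61.8 decreased regions per window against 20.3, and 2.88 increased regions against 5.55. Distance from Nrip1 and gene density cannot be told apart over most of this stretch, since 5 of the 6 gene-poor windows of chromosome 16 adjoin each other around Nrip1. The remaining gene-poor window, 21.4 to 26.4 Mb away, had 17 of 20 regions decreased (85.0%).

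**Figure D3:**
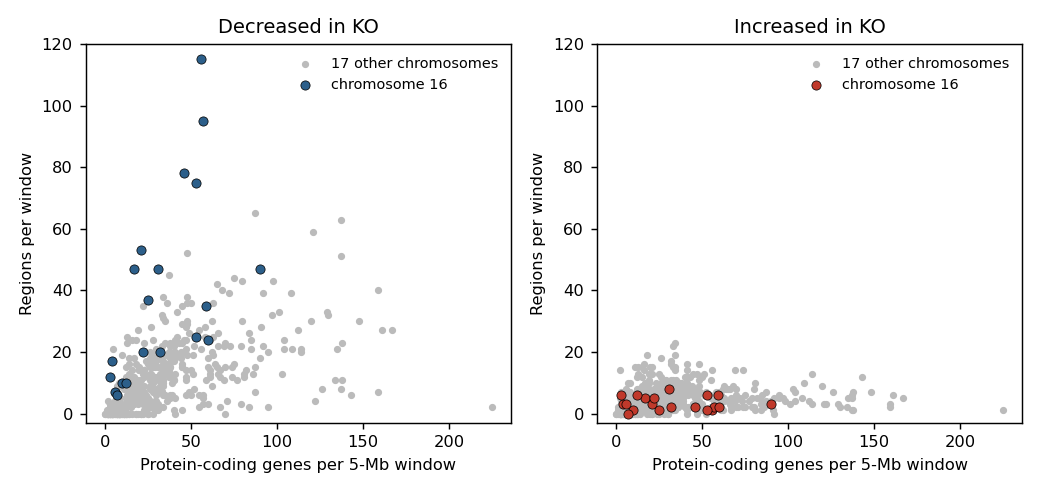
Regions per 5-Mb window against protein-coding genes in the window, for chromosome 16 (coloured) and 17 other chromosomes (grey); each point is a window, with decreased regions at left and increased at right. Decreased counts on chromosome 16 reach 115 per window, while its increased counts stay at 8 or fewer.

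Decreased regions near Nrip1 also differed in other features. Decreased regions within 10 Mb had a median width of 753 bp and a mean GC content of 42.4% ± 4.67 (SD, 41 regions), against 945 bp and 46.8% ± 4.88 for the 739 farther away. Their median distance to a protein-coding start was 66051 bp, against 24063 bp. Increased regions did not differ in the same way in width. Within 10 Mb they had a median width of 798.5 bp and a mean GC content of 40.4% ± 3.65 (16 regions). The 50 farther away had 714.5 bp and 41.8% ± 5.16. The segment from Lipi to Zbtb21, which matches human chromosome 21 by gene order, spans 22.4 Mb and includes Nrip1, and 153 of its 167 regions were decreased (91.6%), beside 627 of 679 in the remainder (92.3%).

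The 66 increased regions were short, AT-rich and far from promoters. Of these, 46 were under 1 kb wide, 16 were 1 to 2 kb and 4 were wider. The median width was 776.5 bp, against 934 bp for decreased regions, and 36.4% had the shortest width in the lists (501 bp), against 15.6%. Elsewhere the median widths were similar, at 777 bp for increased and 853 bp for decreased regions, and 28.6% and 18.6% had the shortest width. Mean GC content was 41.4% ± 4.85 (SD) in increased and 46.5% ± 4.96 in decreased regions, and on the other chromosomes 43.6% and 48.2%. Increased regions were promoter-proximal, with the centre within 1 kb of a start, in 4.55% of cases (3 of 66), against 10.4% of decreased ones. On the other chromosomes this order was opposite, with 15.3% of increased and 11.3% of decreased regions at promoters. The median distance to a protein-coding start was 42132 bp for increased and 24979 bp for decreased regions.

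Increased regions were interspersed with decreased ones. The median distance to the nearest decreased region was 75457.5 bp (247 to 690572), and 8 lay within 10 kb and 36 within 100 kb. These distances were not compared with those of random positions, and the chromosome held 7.94 decreased regions per Mb. The closest pair, 247 bp apart, lay near Cd200r3, an immune receptor gene. The increased regions were nearest to 51 protein-coding genes, of which 31 were also nearest to a decreased region and 20 were not. Of all 664 protein-coding genes of the chromosome, 258 (38.9%) were nearest to a decreased region.

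The densest group of increased regions lay on the telomere side of Nrip1. A run of 6, spanning 313 kb (chr16:78427260-78740110), was interrupted by no decreased region. It began 2.05 Mb from the Nrip1 start. Its last member was the widest increased region of the chromosome, at 4263 bp (chr16:78735848-78740110), and the only increased one of 3 kb or more. By nearest start, 5 of the 6 belonged to D16Ertd472e and 1 to Btg3, an antiproliferative gene. The widest region lay 159140 bp from the D16Ertd472e start and 190838 bp from that of Chodl, which encodes chondrolectin, a membrane protein expressed in muscle and motor neurons. The nearest decreased regions lay 79.1 kb before and 1.14 Mb after the run.

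After D16Ertd472e, the genes with the most increased regions were Robo1 and Rbfox1, with 3 each. Robo1, a Slit receptor, had its increased regions in the gene body, at 3.84 to 4.04 Mb from Nrip1, and was also nearest to 7 decreased ones. Its paralog Robo2 had an intronic increased region of 787 bp (chr16:74158620-74159406) and was nearest to 3 decreased regions. Rbfox1, a splicing factor of muscle and neurons, was also nearest to 9 decreased regions. Pkp2, a desmosomal plakophilin of cardiac muscle, had 2 increased regions in its introns and no decreased one. App, the amyloid precursor, had 2 increased and 1 decreased region.

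Few increased regions reached a promoter. Counting any base within 1 kb of a protein-coding start, they did so at 5 genes: Tigit, an inhibitory receptor of lymphocytes, Tiam1, a Rac exchange factor, Sim2 and Tbx1, both developmental transcription factors, and Rsl1d1, a nucleolar protein gene. The Sim2 region was 2629 bp wide (chr16:94085341-94087969) and the most GC-rich of the increased regions, at 58.4%. A region of 501 bp lay 4366 bp from the start of Snai2, a transcriptional repressor of myogenic progenitors, which was nearest to no decreased region. Crebbp, one of the enzymes that write H3K27ac, held an increased region of 2020 bp (chr16:4106030-4108049) and was nearest to 2 decreased ones of at most 638 bp.

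Wide domains were nearly all decreased. Of the regions of 3 kb or more, 56 were decreased and 1 was increased. They made up 7.18% of decreased regions, against 4.75% on the other chromosomes, and held 29.7% of decreased bases, against 17.9%. In 41 of the 56, several called peaks had been joined. The first 35 Mb of the chromosome held 44 of the 56, beside 58.3% of all decreased regions, and 1 lay within 10 Mb of Nrip1.

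The widest domain, 36470 bp (chr16:92619478-92655947), lay inside Runx1, a transcription factor that myofibres induce after denervation, and joined 10 peaks. It was 57782 bp from the nearest Runx1 start. Next was a domain of 15129 bp (chr16:10770283-10785411) that reached the promoter and covered most of Socs1, an inhibitor of cytokine signalling through JAK kinases. A domain of 12575 bp (chr16:97708500-97721074) was intergenic, 49000 bp from Ripk4, a kinase gene of epidermal differentiation. At Glis2, a zinc finger transcription factor gene, a single called peak of 10700 bp covered the promoter.

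Domains of 9647 bp at Carhsp1, an RNA-binding protein gene, and of 9547 bp at Mrps6, a mitochondrial ribosome subunit, both reached a promoter. Those in Snx29 (8644 bp) and near Lpp (7518 bp) did not. One of 7798 bp lay in Masp1, a complement protease gene, although Rtp1 had the nearest start. One of 7466 bp reached the promoters of Coro7, Dnaja3 and Vasn, which encode a coronin, a mitochondrial co-chaperone and a TGF-β-binding membrane protein.

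**Figure D4:**
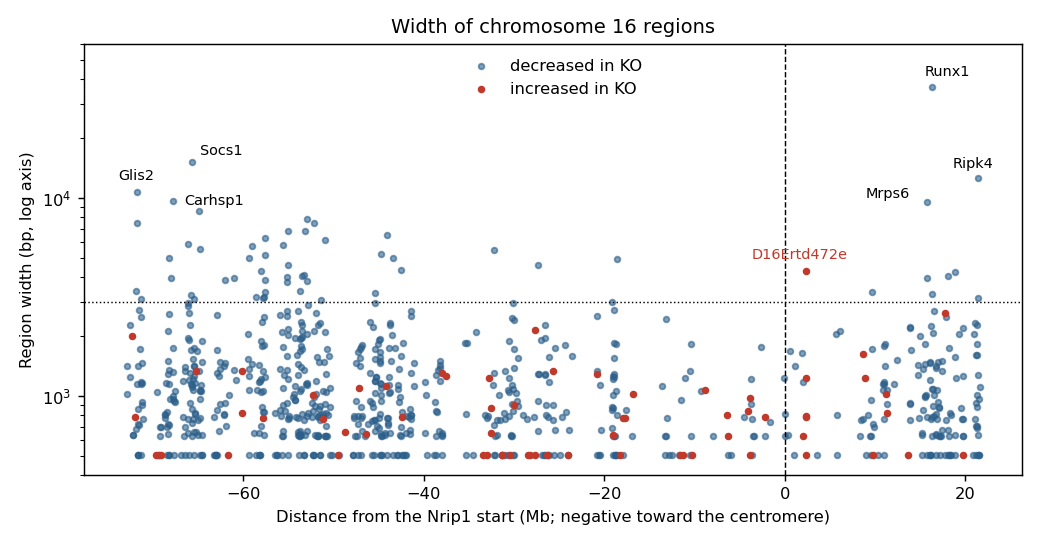
Width of each chromosome 16 region (bp, log axis) against distance from the Nrip1 start (Mb), decreased in blue and increased in red; the dotted line is 3 kb and labels give the nearest protein-coding gene. Wide decreased domains lie mostly toward both ends, the widest being 36470 bp at Runx1, and 1 increased region, of 4263 bp, is above the line.

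Decreased regions reached a large part of the chromosome's genes. Of 664 protein-coding genes, 258 (38.9%) were nearest to a decreased region, against 17.8% over all chromosomes and 17.1% on the others. This was the highest share of any chromosome, followed by chromosome 4 with 29.3%. A decreased region lay within 1 kb of a start at 78 genes (11.7%), against 3.65% over all chromosomes. For increased regions, the shares were 7.68% by nearest start, against 10.6%, and 0.753% at promoters, against 2.87%. At least 5 decreased regions were nearest to each of 55 of the 664 genes, and at least 10 to each of 8. The same counts on the other chromosomes are not given here. Chromosome 16 had 117 decreased regions per 100 protein-coding genes, against 30.5 elsewhere, so these counts are to be read beside that density.

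Lpp, which encodes a LIM protein of focal adhesions, led with 25 decreased regions, 19 of them in its body. Runx1 had 18, covering 56713 bp, the largest sum among the genes with the most regions. Tmem114, a membrane protein gene, had 17, but none in its body and the closest 75210 bp from its start. Xxylt1, a xylosyltransferase gene, and Filip1l, a regulator of cell migration, had 13 each. Snx29, a sorting nexin gene, and Dlg1, a scaffold protein gene of cell polarity, had 11 each. Bdh1, which encodes the mitochondrial enzyme that interconverts ketone bodies, was nearest to 10. None of these 10 lay in its body, and the closest was 6851 bp from its start.

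The gene lists were drawn from textbook roles, but with earlier results of these data known, and well-studied genes are often long and isolated. Their shares are therefore descriptions of chosen genes. They can only be read beside the shares of all chromosome 16 genes, 38.9% for decreased and 7.68% for increased regions. Among transcription factors and chromatin regulators, 23 of 30 were nearest to a decreased and 8 to an increased region, all 8 of them to both. Regions counted for a gene were those nearest to its start, whether inside the gene or not. Etv5, an ETS factor gene, was nearest to 8 decreased regions, with 1 in its body. Bcl6, a repressor gene, was nearest to 6, with none in its body, and Setd4, a methyltransferase gene, to 9, with 1 in its body. For the list named extracellular matrix and proteolysis, the count was 14 of 20. That list also holds genes outside its name, among them Lpp, a focal adhesion gene with 25 of the list's 67 decreased regions. Tmprss2, a serine protease gene, had 9 decreased regions and Adamts5, an aggrecanase gene, had 7.

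In the muscle list, 11 of 20 genes were nearest to decreased and 3 to increased regions. Mylk, which encodes myosin light chain kinase, had 9 decreased regions, and Rcan1, an inhibitor of calcineurin, had 5, including 2 at its promoters. Mrtfb, a coactivator of SRF, was nearest to 7, with 1 in its body. Vgll3, a TEAD cofactor gene, had 4 decreased and 1 increased. Among mitochondrial and metabolic genes, 9 of 20 (45%) were nearest to decreased regions, near the 38.9% of all genes of the chromosome, and 0 to increased ones, beside 7.68% of all. Those with decreased regions included Atp5j, a subunit of ATP synthase, with a decreased region at its promoter, Hmox2, a haem oxygenase gene, with 4, and Mrps6 with 3. The Atp5j region also lay within 1 kb of a start of Gabpa, a gene of the transcription factor list.

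Of 20 axon guidance and adhesion genes, 7 were nearest to increased regions (35.0%), beside 8 of 30 (26.7%) in the transcription factor list and 7.68% of all genes of the chromosome. Of the same 20, 12 (60%) were nearest to decreased regions, beside 38.9% of all genes. In the immune list, 11 of 19 genes were nearest to decreased regions (57.9%) and 1 to an increased one (5.26%), beside the same shares of all genes. Litaf, an endosomal protein gene, and Cd47, the integrin-associated surface protein gene, had 8 decreased regions each, and decreased regions reached the promoters of Ifnar2, an interferon receptor subunit, and Mx1, an interferon-induced antiviral GTPase.

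**Figure D5:**
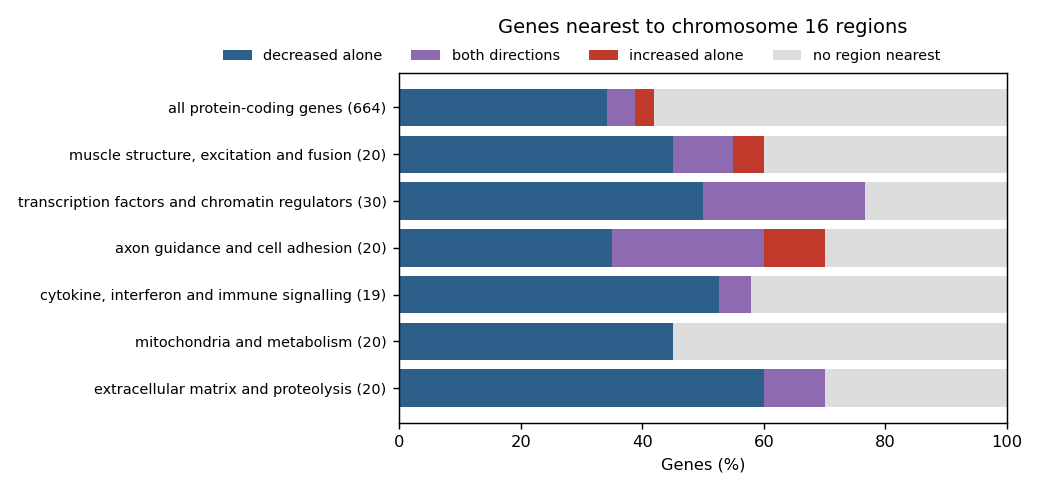
Percentage of genes in each list that were nearest to decreased regions alone, to both directions, to increased regions alone or to none, with the number of genes in parentheses. All 664 protein-coding genes of chromosome 16 are shown on top, with 38.9% nearest to a decreased region, alone or with an increased one.

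Of 76 microRNA genes on the chromosome, 6 had a region within 3 kb, each decreased, as were 92.2% of all regions of the chromosome. Within 10 kb there were 16, of which 15 had a decreased and 1 an increased region closest. The share of other genes at these distances is not given here. Among the 6 within 3 kb was Mir155, a regulator of immune cells, 2796 bp from a decreased region of 630 bp (chr16:84717000-84717629). Its main mature product is printed with the seed, bases 2 to 8, in capitals, from RefSeq on GRCm38.p6.
mmu-miR-155-5p: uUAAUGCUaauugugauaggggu

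Of the 8 motifs searched, the E-box and the MEF2 consensus differed most between directions. In the central 500 bp, the E-box CAGCTG occurred in 36.4% of decreased and 19.7% of increased regions of chromosome 16, and in 38.1% and 29.0% on the other chromosomes. The MEF2 consensus, which is AT-rich, occurred in 7.44% and 19.7%, and elsewhere in 5.04% and 12.1%. Among regions with under 42% GC, MEF2 matches were found in 23 of 144 decreased and 7 of 38 increased regions, and CAGCTG in 30 and 3 of them. At 42% GC or more, MEF2 matches were found in 35 of 636 decreased (5.50%) and 6 of 28 increased regions (21.4%). CAGCTG was found in 254 (39.9%) and 10 (35.7%) of them, so its shares lay close together in this class.

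The shares of the remaining motifs lay closer together. The RUNX site occurred in 37.1% of decreased and 34.8% of increased regions, the nuclear receptor half-site AGGTCA in 31.0% and 31.8%, the TEAD site in 27.2% and 30.3%, and the AP-1 site in 17.3% and 19.7%. The extended site TCAAGGTCA of estrogen-related receptors, which contains the half-site, was in 0.769% of decreased regions and in 0 of 66 increased ones. The CArG box of SRF was in 2.18% of decreased and 0 of 66 increased regions.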

How the data were processed

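H3K27ac and IgG CUT&RUN was performed on KO and control myotubes (8 libraries). The authors aligned reads to mm10 with BWA-MEM2 (2.2.1), called broad peaks with HOMER (4.11) and kept regions that differed by 2-fold or more. How replicates and IgG entered is not stated. The deposited lists are half-open intervals whose score column is 1 throughout and was not used. Depth per library is unknown.

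Regions were given 1-based positions and assigned, by their centre, to the nearest protein-coding start of GENCODE M21. Regions of 3 kb or more were called wide. Distances were measured from the Nrip1 start. Motifs were matched on both strands. Counting was checked on simulated data. Python 3.11.15, pandas 2.3.3, numpy 2.4.6 and SciPy 1.17.1 were used.

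The members, the 6 gene lists (129 of 130 genes matched) and all comparisons were chosen with earlier results of these data known. No test was run, because no value per library was used. Named genes were Nrip1, those at the 5 regions per direction nearest to it, at increased regions, at the 10 widest decreased and 5 widest increased regions, those with the most regions (10 decreased, 5 increased) and list members. Chodl, Cd200r3 and Mir155 were singled out after their values were seen. Alternatives were joining, width, distance, promoter and gene-assignment settings.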

Additional observations from a re-analysis of the deposited data

How the results depend on the processing

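No paired analysis was possible because the lists hold no value per library, and for the same reason no replicate could be left out. The decreased share of 92.2% became 89.9% (567 of 631) when same-direction regions within 10 kb were joined, 76.7% (184 of 240) when those within 100 kb were joined, and 94.8% (367 of 387) for regions of at least 1 kb. Joining within 100 kb merges the long decreased runs, so fewer decreased units are counted. The share within 10 Mb of Nrip1, 71.9%, became 86.5% with a limit of 20 Mb, and was 66.7% with 5 Mb and 70.6% for regions of at least 1 kb. After joining within 100 kb it was 72.2%, close to the 76.7% of the whole chromosome joined in the same way. The promoter-proximal share of decreased regions, 10.4%, became 1.28% within 0.1 kb, 18.3% within 2.5 kb and 14.5% by any base within 1 kb, and that of increased regions, 4.55%, became 0% within 0.1 kb. Genes nearest to increased regions fell from 51 to 30 when the nearest start was taken among all annotated genes. Over whole regions, each of the 8 motif shares of decreased regions was higher, since more bases were searched. Unknown depth limits every count, since a region missing from the lists may be unchanged or undetected.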
